A study of Mus musculus with 4 samples.

Results

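Nfat5, its classical target genes for the uptake and synthesis of organic osmolytes, and a pair of salt-inducible kinase genes were followed in mouse ESCs upon lactate supplementation. The genes were taken by symbol from the deposited tables and are Nfat5, Slc5a3, Slc6a12, Slc6a6, Akr1b3, Sgk1 and Sik1, which makes 7 of the 55335 genes in the count table. All 7 passed the filter on low counts that left 18661 genes for testing, Slc6a12 only through its lactate libraries. RNA-seq was performed on mouse ESCs of the line AB2.2, cultured over MEF feeders in medium with serum, LIF, CHIR99021 and PD0325901. Both groups shared this medium, with 2 libraries of control cells and 2 libraries of cells to which 50 mM lactate was added for 24 h. Whether the lactate was added as the acid or as a salt is not given in the sources used here. The groups analysed here include none in which another solute was added at the same concentration, so lactate as a metabolite and the added solute cannot be told apart. Nothing in the labels says that the libraries of a group came from separate cultures, so p-values measure the spread between these libraries, which may be technical.

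NFAT5, also called TonEBP, is a transcription factor of the Rel family that is activated when the medium becomes hypertonic. It binds a tonicity-responsive element (TonE) and raises the genes that fill the cell with small organic solutes in place of salt. In the kidney medulla these genes supply myo-inositol, betaine, taurine and sorbitol. SGK1 and SIK1 are kinases whose genes respond quickly to salt, hormones and other stimuli, and both act on sodium transport.

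The promoter of Slc6a12 is shown first because it held the only TonE match among the member promoters available here. RefSeq promoter entries on GRCm38.p6 were found for 4 of the 7 genes, with 13 start sites in all, and none for Slc6a6, Akr1b3 and Sik1. The 250 bases before each start were searched on both strands for the TonE consensus, which 4.31% of 32851 windows of the same length hold, and for its core TGGAAA, which 18.6% hold. The match in Slc6a12 lies on the sense strand from 75 to 65 bases before the most upstream RefSeq start (121342574), and is in capitals here. No GENCODE M21 transcript of Slc6a12 starts at that base, and the gene begins there at 121343076 in that annotation.
Slc6a12, chr6:121342324-121342573, plus strand: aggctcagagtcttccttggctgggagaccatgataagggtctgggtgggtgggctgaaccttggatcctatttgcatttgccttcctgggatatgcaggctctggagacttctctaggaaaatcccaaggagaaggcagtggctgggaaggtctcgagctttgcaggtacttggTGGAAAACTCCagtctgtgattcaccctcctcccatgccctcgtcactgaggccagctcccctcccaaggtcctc
A window of Sgk1 is shown beside it, because Sgk1 had the smallest p-value of the 7 genes. Of its 6 windows none held the full TonE consensus, while the core stood in 2 of them, and in the one printed here it begins 163 bases before the start and is in capitals.
Sgk1, chr10:21993640-21993889, plus strand: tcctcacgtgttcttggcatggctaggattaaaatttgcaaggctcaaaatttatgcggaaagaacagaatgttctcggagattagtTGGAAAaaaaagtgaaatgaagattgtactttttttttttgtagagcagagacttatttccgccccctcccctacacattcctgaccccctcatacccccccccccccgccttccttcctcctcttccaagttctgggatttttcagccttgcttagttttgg
The other 4 Slc6a12 windows, the Nfat5 window and the Slc5a3 window held neither the consensus nor the core. A match of letters describes the window only.

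Upon lactate supplementation 0 of the 7 genes were called, where a call needed both adjusted p < 0.05 (edgeR, Benjamini-Hochberg over the whole table) and more than a 2-fold change. Of all genes tested, 0.900% were called, with 103 higher (0.552%) and 65 lower (0.348%). At adjusted p < 0.05 of any size there were again 0 members, beside 0.991% of all genes tested, of which 0.568% were higher and 0.423% lower. With library totals as the only scaling, the split over all genes was 108 higher and 40 lower. Without adjustment, 3 of the 7 genes had a p-value under 0.05, which were Sgk1 and Slc6a12, higher with lactate, and Sik1, lower, beside 23.1% of all genes tested (11.7% higher and 11.4% lower). Of these, Slc6a12 passed the filter only through its lactate libraries, so its p-value is no support for a difference. DESeq2 called no member with the 2-fold limit and gave Sgk1 alone an adjusted p-value under 0.05, beside 846 of its 16922 genes. Nfat5, Slc6a12 and Sgk1 had both lactate libraries above both control libraries (27.0% of all genes did), Slc6a6, Akr1b3 and Sik1 had both below (25.9% did), and only the values of Slc5a3 overlapped. The median log2 fold change of the 7 genes was −0.03, beside 0.01 over all genes tested.

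**Figure D1:**
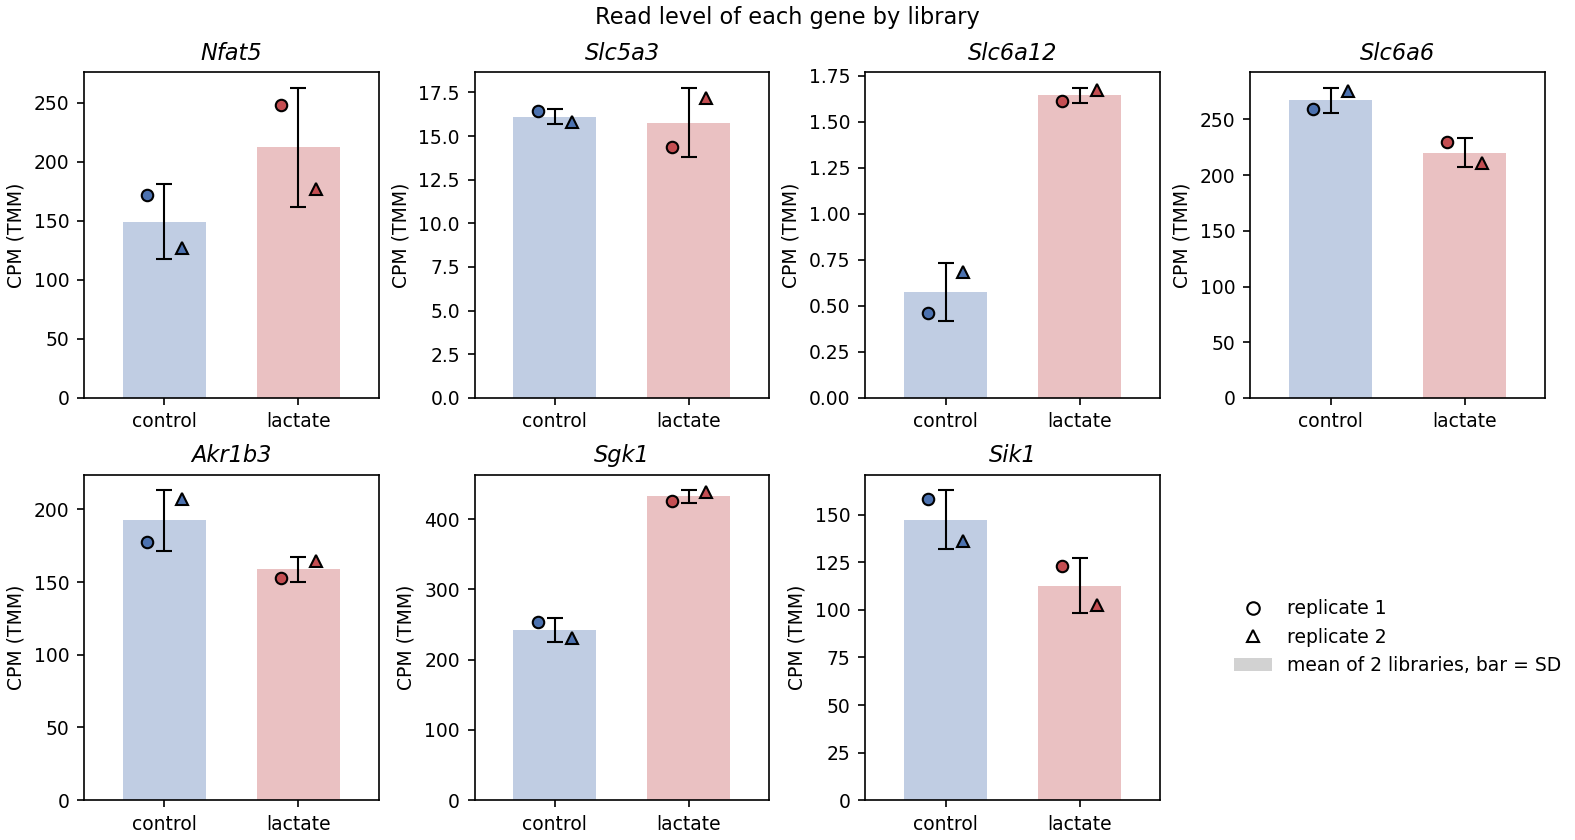
CPM (counts scaled by TMM library size) (vertical axes, each from 0 and on its own scale) of the 7 genes in control and lactate libraries, with circles for replicate 1, triangles for replicate 2, pale bars for the mean of 2 libraries and error bars for the SD. Sgk1 stands at 254 and 231 in the control and at 426 and 439 in the lactate libraries, and Slc5a3 overlaps between the groups.

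Libraries held between 18067562 and 19077885 reads on genes. Mitochondrial genes took 5.48% and 5.72% of these reads in the first control and lactate libraries and 2.43% and 2.82% in the second. All 10 markers fixed for ESCs were expressed, with summed levels from 5925 to 7138 CPM. The 14 markers fixed for feeder fibroblasts all had reads too, from 7 to 14 for Lum to 3347 to 5575 for Col1a1, with sums of 907 and 1153 CPM in the control and 912 and 952 CPM in the lactate libraries. No marker of either kind was called by edgeR. At an unadjusted p-value under 0.05, the ESC markers Sox2, Zfp42 and Klf4 were higher with lactate (log2 0.56, 0.52 and 0.39), and the feeder markers Col3a1 and Prrx1 were lower (log2 −0.90 and −0.57). Their part in the values of the 7 genes was not tested. In such bulk RNA, fewer cells of a type and less RNA per cell cannot be told apart, and which cells carried each transcript was not tested.

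Nfat5, on chromosome 8 of GRCm38 (107293470 to 107379517, plus strand), had 172 and 127 CPM in the control libraries and 248 and 177 CPM in the lactate libraries. The lower lactate library lay just above the higher control library, and in each group the first library was the higher. The mean went from 149 ± 31.7 to 212 ± 50.5 CPM (SD, n = 2). The log2 fold change was 0.51 ± 0.22 (standard error), with adjusted p = 0.241 (edgeR). The 95% interval of the fold ran from 0.977 to 2.07. A 2-fold higher transcript level was thus inside the interval, as was no difference. The value rested on single libraries, since the log2 fold change was 0.21 without lactate replicate 1 (adjusted p = 0.716, edgeR) and 0.73 without lactate replicate 2 (adjusted p = 0.0471). Without control replicate 1 it was 0.73, and without control replicate 2 it was 0.30, and neither passed the test. The share of mitochondrial reads was also higher in the first library of each group, and its part in the Nfat5 values was not tested. NFAT5 is regulated largely by its location and activity, which RNA levels do not measure.

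The values of the osmolyte carriers did not share a direction. Slc6a12 encodes BGT1, the carrier of betaine and GABA, and lies on chromosome 6 (121343076 to 121365775, plus strand). Its reads numbered 8 and 13 in control cells, and 30 and 33 with lactate, which is 0.463 and 0.685 CPM against 1.61 and 1.67 CPM. The groups were well apart on few reads. The fold was 2.82, the largest of the 7 genes, and its log2 value was 1.50. Slc6a12 passed the filter on low counts only through its lactate libraries, so the p-value and interval behind that fold are not given. Under edgeR without the filter on low counts, which kept more genes in the test, Slc6a12 was called (adjusted p = 0.0198), while DESeq2 gave 0.254. Even with lactate its level per length was low, at 1.06 and 1.17 TPM.

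Slc5a3 encodes SMIT1, the sodium-coupled carrier of myo-inositol, and lies on chromosome 16 (92058322 to 92087473, plus strand). It had 16.4 and 15.8 CPM in the control libraries and 14.4 and 17.2 CPM in the lactate libraries. The lactate libraries lay on either side of the control libraries. The fold was 0.979 with a 95% interval from 0.733 to 1.31 (adjusted p = 0.940, edgeR). A rise above 1.31-fold was outside the interval, though 2 libraries a group cannot exclude it. The direction was not fixed, since the log2 fold change of −0.03 became 0.076 in the RSEM expected counts and 0.039 with the libraries scaled by their totals alone. Slc5a3 shares 159 of its 10913 exon bases with Mrps6 and Gm49711 on the same strand. Those genes had between 64 and 185 reads in a library, and reads in the shared bases cannot be assigned to a single gene by counting.

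Slc6a6 encodes TauT, the carrier of taurine and β-alanine, and lies on chromosome 6 (91684053 to 91759066, plus strand). It had the highest level of the 3 member carriers, with 259 and 275 CPM in the control libraries and 229 and 211 CPM in the lactate libraries. In CPM both lactate libraries were lower than both control libraries, by a gap wider than the distance between the libraries of either group. Per length the control libraries had 51.4 and 63.3 FPKM and the lactate libraries 48.6 and 47.15 FPKM. That gap was narrower than the distance between the control libraries. The mean went from 267 ± 11.2 to 220.2 ± 12.8 CPM (SD, n = 2). On the log2 scale this was −0.28 ± 0.13 (standard error), with adjusted p = 0.271 (edgeR). The 95% interval of the fold ran from 0.659 to 1.03. A rise above 1.03-fold was outside the interval, though 2 libraries a group cannot exclude it.

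Akr1b3 encodes aldose reductase, which makes sorbitol from glucose, and lies on chromosome 6 (34302434 to 34317478, minus strand). It had 178 and 207 CPM in the control libraries and 153 and 165 CPM in the lactate libraries. Here too both lactate libraries were the lower ones. The log2 fold change was −0.28 ± 0.14 (standard error) at adjusted p = 0.302 (edgeR), and the 95% interval of the fold ran from 0.649 to 1.05. Akr1b3 has processed copies in the genome, and 9.48% of the 50-base stretches of its transcripts also occur in transcripts of other genes, so its count is less certain. RSEM divides such reads among the genes they fit, and its expected counts gave −0.29 on the log2 scale. Slc6a6 and Akr1b3 were lower with lactate under every scaling and count filter tried.

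**Figure D2:**
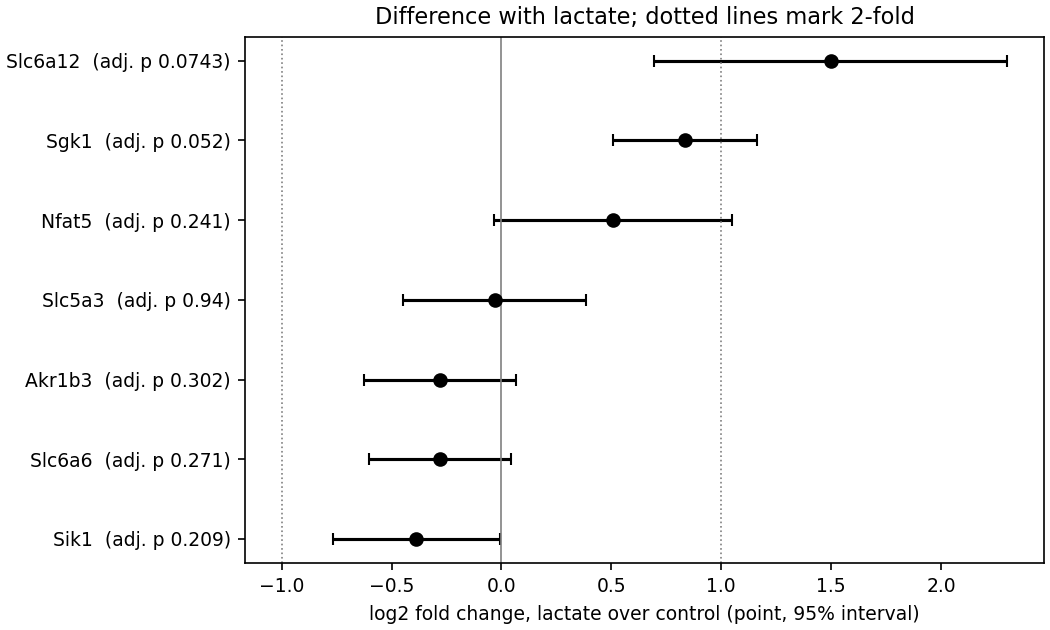
Log2 fold change of lactate over control (horizontal axis) for the 7 genes, as points with 95% intervals from edgeR and with the adjusted p-value beside each name. The interval of Sgk1 lies to the right of 0, beginning at 0.51, while the intervals of Slc5a3, Slc6a6 and Akr1b3 include 0 and end at 0.39, 0.04 and 0.07. The interval and p-value drawn for Slc6a12 are no support, since it passed the filter on low counts only through its lactate libraries.

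Sgk1 and Sik1, the salt-inducible kinase genes, had values of opposite sign, and neither passed the test. Sgk1 encodes a kinase that promotes the activity of ion channels and nutrient carriers, and lies on chromosome 10 (21882184 to 21999903, plus strand). It had 254 and 231 CPM in the control libraries and 426 and 439 CPM in the lactate libraries. The groups were far apart against a spread of 16.4 and 9.23 CPM (SD, n = 2). The fold was 1.78 with a 95% interval from 1.42 to 2.24, and its log2 value was 0.84 ± 0.14 (standard error) at adjusted p = 0.0520 (edgeR). In the order of p-values Sgk1 stood at place 254 of the 18661 genes, just outside the threshold. It also stayed outside with RLE factors (adjusted p = 0.0523) and with at least 10 counts in every library (0.0536, both edgeR). It passed with DESeq2 (adjusted p = 0.00138), without the filter on low counts (0.00345) and with library totals alone (0.0485). It also passed without lactate replicate 1 (0.0239) and without lactate replicate 2 (0.0249, both edgeR), but not without control replicate 1 (0.143) or control replicate 2 (0.138).

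The Sgk1 level per length spread more than its reads did. RSEM assigned it 184 and 132 FPKM in the control libraries and 367 and 245 FPKM in the lactate libraries. The effective length behind these values was 1291 and 1162 bases in the first control and lactate libraries, and 1737 and 1878 bases in the second. The first library of each group thus had the shorter length and the higher FPKM, while the reads within each group were nearly equal. On log2(FPKM + 1), limma-trend gave a difference of 0.94 (adjusted p = 0.305), and edgeR on the RSEM expected counts gave 0.84 (adjusted p = 0.0649). The annotation gives Sgk1 coding transcripts with 7 different starts. Levels of single transcripts were not analysed here.

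Sik1 encodes a kinase of the AMPK family that holds back CREB-dependent transcription, and lies on chromosome 17 (31844250 to 31855804, minus strand). It had 158 and 136 CPM in the control libraries and 123 and 102 CPM in the lactate libraries. In CPM both lactate values were below the control values, and again the first library of each group was the higher. The mean went from 147 ± 15.6 to 113 ± 14.5 CPM (SD, n = 2), which is −0.39 ± 0.16 (log2, standard error) at adjusted p = 0.209 (edgeR). The 95% interval of the fold ran from 0.588 to 0.995. Per length the groups overlapped, with 35.9 and 31.9 FPKM in the control and 32.4 and 27.9 FPKM in the lactate libraries, and limma-trend on log2(FPKM + 1) gave a difference of −0.16 (adjusted p = 0.633).

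The levels per length were ordered in TPM, which RSEM scales by transcript length. In control cells Akr1b3 (242 and 288 TPM) and Sgk1 (255 and 181 TPM) were highest and overlapped. Slc6a6 followed with 71.2 and 86.8 TPM, Sik1 with 49.7 and 43.8 TPM and Nfat5 with 25.4 and 18.8 TPM. Slc5a3, with 1.77 and 1.61 TPM, and Slc6a12, with 0.38 and 0.61 TPM, were far below. Among the members, these carriers of myo-inositol and betaine were thus little expressed beside Slc6a6 and Akr1b3. With lactate Sgk1 stood first, with 521 and 329 TPM, above Akr1b3 with 222 and 233 TPM. Sik1 (46.0 and 37.5 TPM) and Nfat5 (37.2 and 27.1 TPM) came close to each other, and the order of the others was kept.

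**Figure D3:**
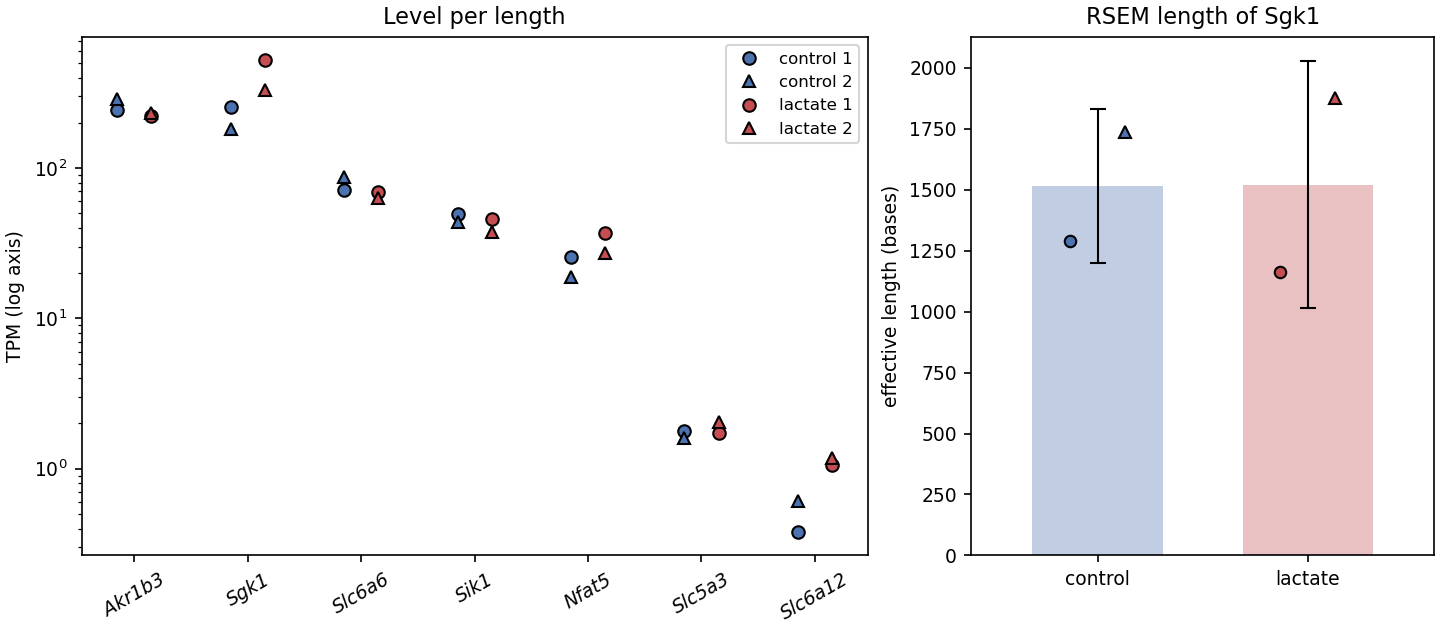
Left, TPM on a log axis for the 7 genes in the order of their control mean, with circles for replicate 1, triangles for replicate 2, blue for control and red for lactate; right, RSEM effective length of Sgk1 in bases by group, with bars for the mean of 2 libraries and error bars for the SD. Slc5a3 and Slc6a12 lie near or below 2.06 TPM in every library, and the Sgk1 length is short in both first libraries (1291 and 1162 bases) and long in both second ones (1737 and 1878 bases).

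For the 3 members with an unadjusted p-value under 0.05, the closest profiles over the 4 libraries were sought among 16579 genes, by the root mean square distance of centred log2 CPM. Zkscan16, Cnpy1 and Ccdc150 were closest to Sgk1, at distances from 0.0123 to 0.0213. Trim50, Gm8038 and Il1rl2 were closest to Slc6a12, at 0.0236 to 0.0361, and Tmem237, Helb and Wipf2 to Sik1, at 0.00741 to 0.0173. With 4 libraries, such closeness is a description only.

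Around these genes, 6 lists of pathway genes were followed, with 136 genes of which 121 passed the filter. Of the 121 genes, 6 were called as upregulated and 1 as downregulated (edgeR), beside 0.552% and 0.348% of all genes tested. The lists were chosen with earlier results of these data known, so these counts cannot be read as an excess. The median log2 fold change of the 121 genes was 0.06. The calls were unevenly stable. Without control replicate 1 only 2 genes were called higher, namely Slc6a9 and Tsc22d3, and in the RSEM expected counts Slc6a9 alone.

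In the list for osmolyte metabolism and other carriers, 21 of 26 genes were tested, with a median of 0.00. Of these, 4 were called higher and none lower, beside 0.552% and 0.348% of all genes tested. At an unadjusted p-value under 0.05, 6 were higher, the 4 called among them, and 3 lower, beside 11.7% and 11.4% of all genes tested. Among the 6 higher genes was Slc6a13, named after its values were seen. Its reads went from 6 and 4 to 12 and 20. Since only the lactate libraries brought Slc6a13 past the filter on low counts, its p-value is no support for a difference. The lower ones, named after their values were seen, were Slc5a11, Akr1b10 and Chka (log2 −0.72, −0.58 and −0.58). Per length the Chka values overlapped, with 55.4 and 77.0 FPKM in the control and 61.0 and 66.5 FPKM in the lactate libraries. Slc38a2 encodes SNAT2, a carrier of neutral amino acids that cells use as osmolytes, and it also answers to amino acid shortage. It rose from 139 and 127 CPM to 303 and 257 CPM, by 1.07 ± 0.15 (log2 fold change ± standard error; adjusted p = 0.0467, edgeR). Slc6a9, the glycine carrier GlyT1 of the same family as Slc6a12 and Slc6a6, rose from 75 and 64 reads to 326 and 356 reads, by 2.21 ± 0.20 (log2; adjusted p = 0.0313, edgeR). Cdo1, the cysteine dioxygenase that begins taurine synthesis, rose from 440 and 418 reads to 956 and 925 reads (log2 fold change 1.05 ± 0.15, adjusted p = 0.0467). Gpcpd1, which degrades glycerophosphocholine, another osmolyte of the kidney, rose from 546 and 505 reads to 1388 and 1225 reads (log2 fold change 1.23 ± 0.16, adjusted p = 0.0434). None of these 4 genes overlapped between the groups, but 27.0% of all genes tested were likewise higher with lactate without any overlap. Their separation therefore adds no support to the calls. Slc38a2 and Slc6a9 are amino acid carriers. Bhmt, the methyltransferase that consumes betaine, had 187 and 244 reads in control cells against 443 and 536 with lactate, a log2 value of 1.11 ± 0.18 at adjusted p = 0.0520 (edgeR), just outside the threshold. It was called by DESeq2 (adjusted p = 0.00146) and by edgeR without the filter on low counts (0.00263), and was named after its values were seen.

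No gene was called in the list of NFAT proteins and regulators of NFAT5 by edgeR, and 4 of its 20 tested genes had an unadjusted p-value under 0.05, beside 23.1% of all genes tested. The smallest p-values belonged to Abl1, Fyn and Dhx9, with log2 fold changes of −0.57, 0.59 and −0.61 and adjusted p = 0.0747, 0.0782 and 0.0875 (edgeR). Per length the Fyn values of the groups overlapped, with 21.3 and 20.8 FPKM in the control and 21.4 and 16.7 FPKM in the lactate libraries, where RSEM set a longer effective length. Fyn and Abl1 are tyrosine kinases, and DHX9 is an RNA helicase that binds NFAT5. Among other salt-induced genes, 17 of 20 were tested, none was called by edgeR, and 4 had an unadjusted p-value under 0.05, a share near the same 23.1%. Gadd45a, a stress-induced gene of growth arrest, had 13.4 and 13.7 CPM in the control and 26.3 and 31.6 CPM in the lactate libraries, with adjusted p = 0.0506 (edgeR), and was called with RLE factors and by DESeq2. Aqp3, the water and glycerol channel, had 204 and 241 CPM against 408 and 349 CPM, with a log2 difference of 0.77 (adjusted p = 0.0678). Atp1b3, a subunit of the sodium pump, had 0.39 (adjusted p = 0.143). These 3 were the higher ones, and 1 was lower, beside 11.7% and 11.4% of all genes tested. The lower one, Hspa1a, named after its values were seen, had 21 and 26 reads against 11 and 16. Its log2 difference was −0.87 (adjusted p = 0.19, edgeR).

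The list for cell volume and ion transport had 25 of 26 genes tested, with a median log2 fold change of 0.14. Of these, 20 had positive values, beside 9522 of all 18661 genes tested, and Lrrc8d alone was called by edgeR, beside 0.552% of all genes called higher. Lrrc8d encodes a subunit of the volume-regulated anion channel that lets organic osmolytes such as taurine pass. It rose from 80.6 and 64.7 CPM to 172 and 150.3 CPM, by 1.15 ± 0.16 (log2; adjusted p = 0.0467, edgeR). Slc12a2, the sodium-potassium-chloride carrier NKCC1 of regulatory volume increase, had a log2 difference of 0.48 (adjusted p = 0.108). Slc12a3, the thiazide-sensitive carrier of the kidney, had 3 and 2 reads in the control and 14 and 13 reads in the lactate libraries. It passed the filter on low counts only through the latter, so its p-value is not given. Clcn2 and Oxsr1, named after their values were seen, had log2 differences of −0.46 and −0.32. They were the 2 genes of this list lower at an unadjusted p-value under 0.05, beside 3 higher, Slc12a3 among them.

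**Figure D4:**
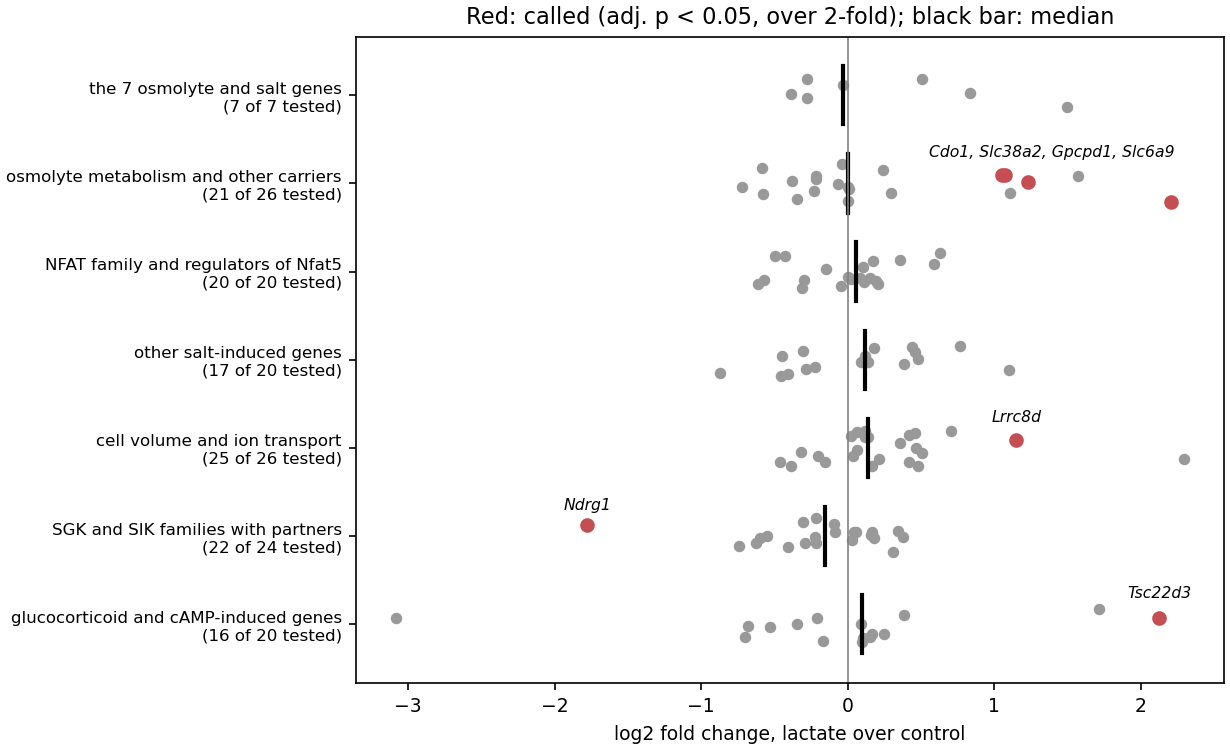
Log2 fold change of lactate over control (horizontal axis) of the tested genes of each list (rows), with grey points for genes not called, red points for called genes, whose symbols are given, and a black bar for the median. The 7 members lie between −0.39 and 1.50 with no red point, and 4 of the 7 called pathway genes are in the list for osmolyte metabolism and other carriers.

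Around the kinases, 22 of 24 genes of the SGK and SIK families and their partners were tested, with a median log2 fold change of −0.16. Ndrg1, whose protein is a substrate of SGK1 and whose gene also responds to hypoxia, was called lower, beside 0.348% of all genes tested. It fell from 39.6 and 25.7 CPM to 9.58 and 9.43 CPM, a log2 change of −1.78 ± 0.24 (adjusted p = 0.0450, edgeR), while Sgk1 itself was 1.78-fold higher at adjusted p = 0.0520. Ndrg2 and Hdac5 had −0.74 and −0.60 with adjusted p = 0.0731 and 0.108 (edgeR). The other tested genes of the SGK and SIK families, Sgk2, Sgk3, Sik2 and Sik3, had −0.62, 0.34, 0.029 and −0.22 and were not called, and these 4 genes were named after their values were seen. In the list of genes induced by glucocorticoids or cAMP, 16 of 20 were tested and 1 was called, higher, beside 0.552% of all genes tested. At an unadjusted p-value under 0.05, 2 were higher and 3 lower, beside 11.7% and 11.4% of all genes tested. Tsc22d3, which encodes GILZ, a classical glucocorticoid target like Sgk1, rose from 39 and 56 reads to 178 and 262 reads, by 2.13 ± 0.26 (log2; adjusted p = 0.0406, edgeR). Per2, a clock gene, had 13 reads in each control library and 45 and 46 in the lactate libraries, and Fos 224 and 669 reads against 48 and 61, both with adjusted p = 0.0520 (edgeR). Fkbp5 and Per1, further glucocorticoid targets named after their values were seen, had −0.21 and −0.35 with adjusted p = 0.500 and 0.281 (edgeR).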

How the data were processed

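The authors trimmed reads with cutadapt 1.16, mapped them to mm10 with STAR and took gene counts over GENCODE M23. The deposited files hold raw counts without normalization on genes and on transposable elements, and per library the expected counts, TPM and FPKM computed with RSEM. The strand setting and the RSEM version are not given in the sources used here. Rows of transposable elements, which held 7.36% to 9.41% of the reads, were left out.

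Tests on the counts used edgeR 4.0.16 (in R 4.3.3; filterByExpr, TMM, legacy quasi-likelihood test without a replicate term), with limma 3.58.1 and DESeq2 1.42.0 as alternatives. Expected counts were rounded to whole numbers for edgeR. Benjamini-Hochberg adjustment covered the 18661 genes tested, and calls needed adjusted p < 0.05 and over 2-fold. Standard errors were taken as |log2 fold change| over √F, and the 95% interval uses the t quantile of the test's degrees of freedom. SDs are over the CPM of 2 libraries. A permutation of 2 libraries against 2 cannot give a two-sided p below 0.333, so none was run. The control libraries differed beyond counting error (chi-square over degrees of freedom 32.2), as did the lactate libraries (31.4). Scripts were tested on simulated data.

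The members and lists were chosen with earlier results of these data known. Named were all members, the called genes and the 3 smallest p-values of each list, and the 3 closest profiles. Positions come from GENCODE M21 on GRCm38, which holds all 26 member and list genes named by this rule under the deposited identifiers. Other assays of the study were not analysed here.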

Additional observations from a re-analysis of the deposited data

How the results depend on the processing

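Slc6a12 rested on 8 to 33 reads a library, and whether depth limited its test was not tested. In the fit with a replicate block, too, it passed the filter on low counts only through its lactate libraries. The count of members called higher was 0 and became 1 (Slc6a12) without a filter on low counts and with a replicate block. Members at an adjusted p-value under 0.05 numbered 0, against 1 (Sgk1) with DESeq2, 1 with library totals alone, 2 without the filter and 6 with the replicate block. Over all genes the same limit was passed by 846 of 16922 with DESeq2 and 165 of 18661 with library totals alone. Without the filter 1647 of 32923 passed it, and with the block 8297 of 18661. List genes called higher numbered 6, against 10 without the filter, 11 with the block, 1 in RSEM expected counts, 0 by limma-trend on log2(FPKM + 1) or log2(FPKM + 0.1), and 2 to 8 with a library left out. List genes called lower numbered 1, against 2 with DESeq2, without the filter and with the block, 0 in RSEM counts and by limma-trend, and 2 to 3 with a library left out.

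Sgk1 passed with log2 fold changes of 0.82 (DESeq2), 0.90 (library totals) and 0.79 (no filter), and ranged from 0.76 to 0.89 with a library left out. Slc6a12 passed at 1.46 without the filter, and could not be fitted with at least 10 counts in every library, where it is filtered out. Nfat5 ranged from 0.21 to 0.73 with a library left out. Slc5a3 turned positive with library totals (0.039), RSEM expected counts (0.076) and limma-trend (0.091 and 0.15), and without lactate replicate 1 (0.066), and ranged from −0.17 to 0.066 with a library left out; the cause was not tested. Other members kept their direction under every alternative listed.

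The labels number the replicates without saying that a number marks a shared culture or day, and 2 pairs do not settle it. Deviations of same-numbered libraries correlated at 0.56 across genes. With the replicate block, every member but Slc5a3 had an adjusted p-value under 0.05 (edgeR), as did 8297 of the 18661 genes tested. The log2 fold changes of these members were 0.50 (Nfat5), 1.50 (Slc6a12), −0.28 (Slc6a6), −0.28 (Akr1b3), 0.84 (Sgk1) and −0.39 (Sik1). Over all genes the calls, 103 higher and 65 lower, became 761 and 395 with the block, 190 and 168 with DESeq2, 482 and 325 without the filter, 27 and 17 in RSEM expected counts and 0 and 0 by limma-trend. With a library left out they ranged from 45 to 502 higher and from 39 to 367 lower.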
